A study of Homo sapiens with 16 samples.

Results

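The genes described here encode adhesion and homing receptors of blood cells: CD44, the integrin subunits ITGAL, ITGB2, ITGA4, ITGB1, ITGB7 and ITGA6, and the surface proteins CD34 and CD93. They were chosen by gene symbol in the array annotation, and all 9 were among the 19738 genes measured. They were read by 35 of the 54675 probe sets, counting only probe sets that name that gene and no other. Where a gene had several, the probe set with the highest mean stood for the gene and the others were used to check it. RNA came from 16 established human lines of T-ALL, T-cell acute lymphoblastic leukaemia, a cancer of immature T cells, named ALL-SIL, CCRF-CEM, DU528, HSB-2, JURKAT, KOPT-K1, LOUCY, MOLT-16, MOLT-4, P12-ICHIKAWA, PEER, PF-382, SKW-3, SUP-T11, SUP-T13 and TALL-1. Each line was grown untreated, at one cell density for all lines, and total RNA taken after 24 hours was hybridised to 1 Affymetrix expression array. The lines form 1 group, with no normal T cells and no replicate array, so the values carry no replicate error and differences between lines hold both biology and the handling of a single culture. Whether a low value comes from fewer expressing cells or from less RNA per cell cannot be told apart.

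Integrins are heterodimers of an alpha and a beta subunit that hold a cell to its neighbours or to the matrix, and an alpha subunit reaches the surface only with a beta partner. ITGAL pairs with ITGB2 to form LFA-1, which binds ICAM proteins on endothelium and antigen-presenting cells. ITGA4 pairs with ITGB1 to form VLA-4, which binds VCAM1 and fibronectin in bone marrow, or with ITGB7 to form a gut-homing receptor that binds MADCAM1. ITGA6 with ITGB1 or ITGB4 binds laminin, and CD44 binds hyaluronan and serves as a memory T-cell and leukaemia-initiating cell marker. CD34 is a sialomucin of haematopoietic progenitors and endothelium, and CD93 is a C-type lectin-like receptor of early progenitors, myeloid cells and endothelium.

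Intensities are the deposited linear values. The median over the whole table was 42.4, and "at or below the table median" and "above 4 times the table median" (169) are used below as marks of a low and a clearly raised signal. SDs, ranges and correlations are of log2(intensity + 16), which understates differences among low values, and levels of different genes are not compared because probe sets differ in response. The array medians ran from 37.6 in MOLT-16 to 44.96 in LOUCY. The 9 hybridisation spike probe sets, RNAs added in fixed amounts, had a largest SD over arrays of 0.17, so neighbouring lines closer than 0.33 on the log2 scale (2 such SDs) were not treated as ordered. Of 9 T-cell markers, 6 were above 4 times the table median in all lines. CD3D, a chain of the T-cell receptor complex, lay between 7095 in MOLT-16 and 14179 in CCRF-CEM. LCK lay between 942 and 14199, CD247 between 589 and 4943, CD3G between 667 and 8568, CD7 between 208 and 4917, and BCL11B between 300.2 and 6832. CD2 was at or below the table median in 5 lines and CD5 in 3, both lowest in DU528, at 11.1 and 9.5. CD3E was at 31.2 in MOLT-16, the line with the fewest T-cell markers above the mark (6 of 9). The numbers of clearly raised markers in any line were at most 3 of 6 for B cells, 1 of 8 for myeloid cells, 1 of 7 for endothelium, 1 of 7 for stroma and 2 of 5 for erythroid and megakaryocytic cells. Of these lists, 3 of 6 B-cell, 6 of 8 myeloid and 5 of 7 endothelial markers never exceeded 4 times the table median (45% of all genes did not). CD14, MPO, CDH5, VWF and MS4A1 were among them. The B-cell marker CD79A exceeded it in all 16 lines, from 215 to 411, and the endothelial marker PECAM1 in 12. The B-cell markers CD79B and EBF1 were at 1152 and 865 in LOUCY.

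Most of these receptors were clearly raised in some lines and at or below the table median in at least 1 other. An SD above 1 was found for 6 of the 9 genes (CD44, ITGAL, ITGA4, ITGB7, ITGA6 and CD93), against 12.5% of all genes and 17.8% of the 13295 genes that passed a filter on low values, a filter which all 9 passed. The same 6 genes had at least 1 line at or below the table median and at least 1 line above 4 times it, a pattern shown by 14.4% of all genes. Only 1 line was at or below the table median for each of ITGAL, ITGA4 and ITGA6. It was 3 lines for CD44, 6 for ITGB7 and 9 for CD93. The beta subunits ITGB2 and ITGB1 were above 4 times the table median in every line, as were 32.2% of all genes, and CD34 never was, as for 45% of all genes. The line with the highest value stood apart by more than 0.33 on the log2 scale for 2 genes, DU528 for ITGB1 and LOUCY for CD93, and for the other 7 the upper lines are not ordered.

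**Figure D1:**
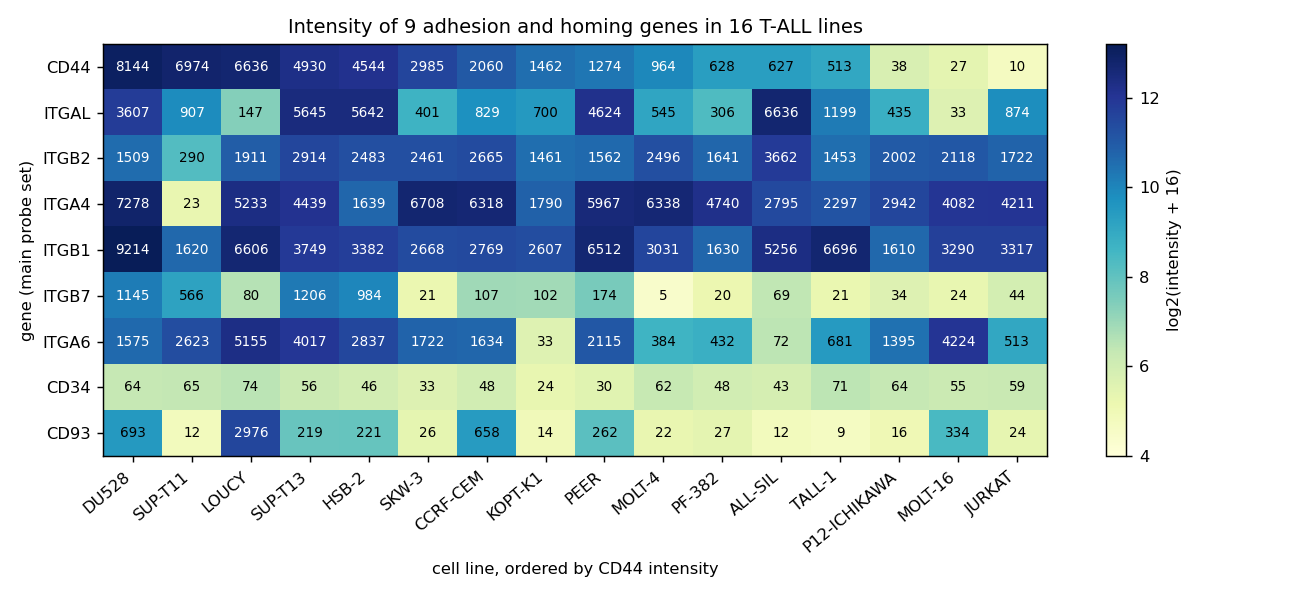
Heat map of the 9 genes (rows) in the 16 lines (columns, ordered by CD44), coloured by log2(intensity + 16) with the deposited intensity written in each cell, 1 array per line and no error bars. CD44 runs from 8144 in DU528 to 10.2 in JURKAT, ITGB2 and ITGB1 are raised throughout, ITGA4 is at 23.0 in SUP-T11 and at 1639 or above elsewhere, and CD34 stays between 23.9 and 74.2.

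Promoter sequence was at hand for 6 of the 9 genes (CD34, ITGA6, ITGA4, ITGB1, CD44 and ITGB7) from RefSeq, build GRCh38.p14. The 250 bases before the start of 3 of them are shown, since these genes give the widest range (CD44), the most lines with a low signal among the beta subunits (ITGB7) and a raised signal in every line (ITGB1). Each reads 5′ to 3′ along the gene, and capitals mark the core letters bound by ETS factors, GGAAG or its reverse complement CTTCC. The windows lie at chr11:35138921-35139170 on the plus strand for CD44, chr12:53207252-53207501 on the minus strand for ITGB7 and chr10:32958231-32958480 on the minus strand for ITGB1.
CD44: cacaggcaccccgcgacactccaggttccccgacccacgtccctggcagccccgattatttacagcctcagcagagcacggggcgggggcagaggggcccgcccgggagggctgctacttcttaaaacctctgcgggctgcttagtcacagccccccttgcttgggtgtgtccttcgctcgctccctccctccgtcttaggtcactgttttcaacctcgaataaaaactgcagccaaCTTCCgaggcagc
ITGB7: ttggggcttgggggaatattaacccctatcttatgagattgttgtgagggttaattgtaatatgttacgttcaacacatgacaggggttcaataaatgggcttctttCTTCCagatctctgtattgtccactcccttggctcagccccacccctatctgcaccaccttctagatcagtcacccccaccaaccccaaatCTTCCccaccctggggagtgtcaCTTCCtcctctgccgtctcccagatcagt
ITGB1: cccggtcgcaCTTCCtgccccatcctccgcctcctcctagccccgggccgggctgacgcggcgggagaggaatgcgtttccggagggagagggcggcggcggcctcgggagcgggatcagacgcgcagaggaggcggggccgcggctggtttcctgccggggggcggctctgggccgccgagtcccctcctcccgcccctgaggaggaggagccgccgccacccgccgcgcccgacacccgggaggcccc
The windows shown differ in CG dinucleotides, with 32 in ITGB1, 15 in CD44 and 2 in ITGB7, where the median of 35093 promoter windows of this length was 11. Their GC contents were 78.4% in ITGB1, 62.4% in CD44 and 49.6% in ITGB7, against a median of 58%. ITGB1 has a second RefSeq window, at chr10:32935559-32935808 on the minus strand, with 4 CG dinucleotides and a GC content of 41.6%, and the data do not say which start these lines use. The ETS letters occurred 3 times in ITGB7, all as CTTCC, and 1 time each in CD44 and ITGB1, and 65.1% of all windows hold them on either strand. The RUNX letters TGTGGT or ACCACA, held by 10.97% of windows, were in none of these 3, and the MYB letters AACNG or CNGTT, held by 70.6%, occurred 2 times in CD44. A match is a match of letters, not a measured binding site.

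CD44 had the widest range of the 9 genes, 8.29 on the log2 scale, with an SD of 2.66. Its intensity was 8144 in DU528, 6974 in SUP-T11, 6636 in LOUCY, 4930.5 in SUP-T13, 4544 in HSB-2, 2985 in SKW-3 and 2060 in CCRF-CEM. It was 1462 in KOPT-K1, 1274 in PEER, 964 in MOLT-4, 628 in PF-382, 627 in ALL-SIL and 513 in TALL-1. It was 38.4 in P12-ICHIKAWA, 27.3 in MOLT-16 and 10.2 in JURKAT. The last 3 lines lay at or below the table median. They were parted from the other 13, all clearly raised, by 3.28 on the log2 scale, 39.6% of the range. Of the 15 steps between neighbouring lines, 7 were within 0.33, among them that from PF-382 to ALL-SIL.

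CD44 was also the gene read most often on the array, by 13 probe sets, and 8 of them exceeded 4 times the table median in some line. The other 7 of these 8 followed the main one over the 16 lines with r between 0.921 and 0.975, and all had their lowest value in JURKAT, MOLT-16 or P12-ICHIKAWA. The remaining 5 probe sets never exceeded the mark, and their r to the main one lay between 0.072 and 0.669. CD44 transcripts are known for variable exons that splicing can include, but the annotation used does not say which exons each probe set reads.

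**Figure D2:**
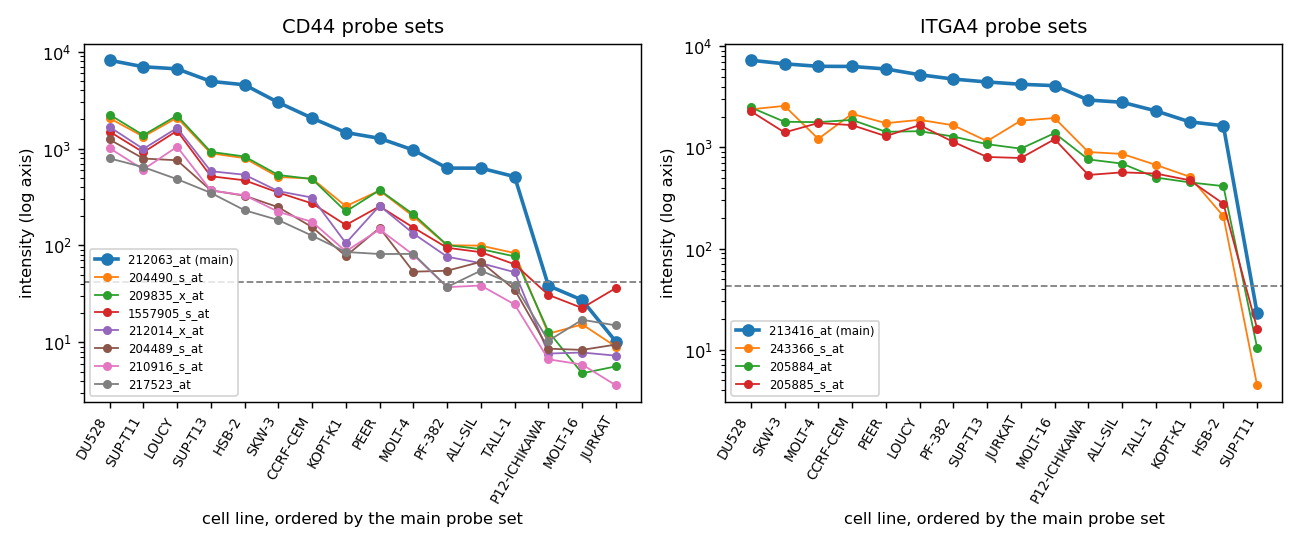
Deposited intensity (log axis) by line for the 8 CD44 probe sets that exceed 4 times the table median in some line and for the 4 ITGA4 probe sets, 1 line plot per probe set, with the table median of 42.4 dashed. The CD44 probe sets are low together in P12-ICHIKAWA, MOLT-16 and JURKAT, and the 4 ITGA4 probe sets are low in SUP-T11 only.

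Of 12 measured genes whose products work with CD44, 3 had an SD above 1 (12.5% of all genes did), with a median SD of 0.60 against 0.35 over all genes, and 5 were above 4 times the table median in all lines (32.2% of all genes). MSN, moesin, which ties CD44 to actin, was at or above 4013 in every line, and EZR, ezrin, was at or above 728. RDX, radixin, of the same family, was at 18.8 in KOPT-K1 and 19.4 in ALL-SIL but at 290.4 or more in the other 14 lines. SRGN, serglycin, a proteoglycan that binds CD44, ran from 168 in MOLT-16 and 250.1 in P12-ICHIKAWA to 8124 in LOUCY and 10854 in DU528. ESRP1, a splicing regulator that favours variable CD44 exons in epithelium, exceeded 4 times the table median in PF-382 only, at 222. MMP9, a protease that CD44 can hold at the cell surface, was highest in KOPT-K1 at 641 and at or below 204 in the other 15 lines.

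The genes most like CD44 over the 16 lines were RNF115, SRGN and NDUFA13, with r of 0.92, 0.88 and 0.88, and SRPK1 was the most opposite at -0.88. Within the 13 lines with CD44 signal r was 0.74, 0.86 and 0.75, and -0.72 for SRPK1. Among the other receptors, CD44 in these 13 lines had r of 0.73 with ITGB7 (rho 0.69) and 0.68 with ITGA6 (rho 0.66), and 0.64 and 0.75 without DU528 and TALL-1. Without the lines farthest for the other gene, r was 0.63 with ITGB7 and 0.81 with ITGA6. The remaining receptors had lower r with CD44 in the 13 lines, from -0.29 with ITGB2 to 0.59 with CD93. Over all 16 lines, with the 3 low lines included, the r of CD44 was 0.62 with ITGB7 but 0.22 with ITGA6. All correlations here are descriptions over lines read by 1 array each.

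ITGAL, the alpha subunit of LFA-1, ranged over 7.08 on the log2 scale (SD 2.01). It was 6636 in ALL-SIL, 5642 in HSB-2, 5645 in SUP-T13, 3607 in DU528 and 4624 in PEER. It was 1199 in TALL-1, 907 in SUP-T11, 874 in JURKAT, 829 in CCRF-CEM and 700 in KOPT-K1. It was 545 in MOLT-4, 435 in P12-ICHIKAWA, 401 in SKW-3, 306 in PF-382, 147 in LOUCY and 33.2 in MOLT-16. Thus 5 lines stood at 3607 or above, 9 lay between 306 and 1199, LOUCY was below the mark of 169, and MOLT-16 was below the table median. The second probe set followed it closely (r = 0.994, rho 0.994), with 47.7 in MOLT-16. The most like genes were SYNE2, a nuclear envelope protein, OIP5-AS1 and GRASLND, both non-coding RNAs, all with r of 0.84, and LINC02985 was the most opposite at -0.85.

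ITGB2, the beta partner of ITGAL, varied far less (SD 0.79, range 3.59). It was 3663 in ALL-SIL, 2914 in SUP-T13, 2665 in CCRF-CEM, 2496 in MOLT-4, 2483 in HSB-2, 2461 in SKW-3, 2118 in MOLT-16 and 2002 in P12-ICHIKAWA. It was 1911 in LOUCY, 1722 in JURKAT, 1641 in PF-382, 1562 in PEER, 1509 in DU528, 1453 in TALL-1, 1461 in KOPT-K1 and 290.0 in SUP-T11. The 15 lines other than SUP-T11 lay within a narrow band, and 14 of the 15 steps were within 0.33. SUP-T11 was 2.26 below the next line, and all 3 ITGB2 probe sets had their lowest value there. The third probe set was dim, 52.6 to 268, and followed the main one less closely (r = 0.52).

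ITGAL and ITGB2 had r = 0.12 over the 16 lines (rho 0.13). MOLT-16, with ITGAL at 33.2, had ITGB2 at 2118, and SUP-T11, with the lowest ITGB2, had ITGAL at 907. A limma fit of all 13294 other genes on the level of ITGAL gave ITGB2 a slope of 0.05 (SE 0.10, 95% interval -0.17 to 0.26, adjusted p = 0.914, n = 16 lines). That fit called 0 genes (0%) at an adjusted p of 0.05, and 1436 (10.8%) had an unadjusted p below 0.05. ITGAL and ITGB7 had r = 0.64 (rho 0.64), with 0.75 without ALL-SIL and MOLT-16 and 0.53 without DU528 and SUP-T13, but the limma slope of 0.63 (SE 0.19) had an adjusted p of 0.262.

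ITGA4, the alpha subunit of VLA-4 and of the gut-homing receptor, was high in every line but SUP-T11 (SD 1.81, range 7.55). It was 7278 in DU528, 6708 in SKW-3, 6338 in MOLT-4, 6318 in CCRF-CEM, 5967 in PEER, 5233 in LOUCY, 4740.4 in PF-382 and 4439 in SUP-T13. It was 4211 in JURKAT, 4082 in MOLT-16, 2942 in P12-ICHIKAWA, 2795 in ALL-SIL, 2297 in TALL-1, 1790.4 in KOPT-K1 and 1639 in HSB-2. In SUP-T11 it was 23.0, a gap of 5.41 on the log2 scale to HSB-2, which makes up 71.7% of the whole range. The other 3 ITGA4 probe sets gave 4.4, 10.5 and 16.2 in SUP-T11 and exceeded 4 times the table median in the 15 other lines.

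ITGB1, the common beta subunit, was raised in all lines (SD 0.77, range 2.51). It was 9214 in DU528, 6696 in TALL-1, 6606 in LOUCY, 6512 in PEER, 5256 in ALL-SIL, 3382 in HSB-2, 3749 in SUP-T13 and 3317 in JURKAT. It was 3290 in MOLT-16, 3031 in MOLT-4, 2769 in CCRF-CEM, 2668 in SKW-3, 2607 in KOPT-K1, 1630 in PF-382, 1620.1 in SUP-T11 and 1610 in P12-ICHIKAWA. The lines from SUP-T13 to KOPT-K1 formed a run without a step above 0.33, and the lowest 3 lines stood 0.67 below them. Another 2 probe sets followed with r of 0.981 and 0.988, and the remaining 4 never exceeded 47.9. The genes most like ITGB1 were CREB3L2, MAN2B1 and NT5C2 (r of 0.84, 0.83 and 0.83), and TCOF1 was the most opposite at -0.91.

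ITGB7, the beta subunit that directs ITGA4 to the gut ligand, was raised in 5 lines only (SD 1.96, range 5.84). It was 1206 in SUP-T13, 1145 in DU528, 984 in HSB-2, 566 in SUP-T11 and 174 in PEER. It was 107 in CCRF-CEM, 102 in KOPT-K1, 80.0 in LOUCY, 68.8 in ALL-SIL and 44.0 in JURKAT. It was 33.9 in P12-ICHIKAWA, 23.7 in MOLT-16, 21.4 in TALL-1, 21.2 in SKW-3, 19.8 in PF-382 and 5.3 in MOLT-4. Its single probe set leaves no second reading. SUP-T11 stands out here as a line with ITGB7 at 566 and its alpha partner ITGA4 at 23.0. The genes most like ITGB7 were TNFSF14, a cytokine of the TNF family that T cells make (r = 0.90), ZFP36, which speeds decay of mRNAs (0.88), and TRIB2 (0.88), and ZNF280B was the most opposite at -0.86.

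Neither beta partner of ITGA4 passed the test. The limma slope on ITGA4 was 0.17 for ITGB1 (SE 0.10, 95% interval -0.04 to 0.39, adjusted p = 0.482) and -0.34 for ITGB7 (SE 0.26, 95% interval -0.90 to 0.21, adjusted p = 0.638), n = 16 lines. The same fit called 281 genes (2.11%), 202 with a positive slope (1.52%) and 79 with a negative slope (0.594%), and 0 when SUP-T11 was left out. ITGB2, which is no partner of ITGA4, was among the called genes with a slope of 0.36 (SE 0.07, limma adjusted p = 0.00896), and without SUP-T11 its slope was 0.02 (adjusted p = 0.994). Without SUP-T11 the slopes of the partners were 0.17 for ITGB1 (SE 0.27) and -0.23 for ITGB7 (SE 0.72). With SEs this wide, the fit says little about either partner in the other lines. MYB, a transcription factor of early T cells, was the gene most like ITGA4 (r = 0.95, rho 0.57), followed by COPS3 and ZMAT5 (0.92 each), with MDS2 the most opposite at -0.93. Without SUP-T11 and HSB-2, r was 0.46 for MYB, 0.74 for COPS3, 0.65 for ZMAT5 and -0.49 for MDS2. The genes most like ITGB2 (MFHAS1 0.94, TRA2B 0.92 and GNAQ 0.91) likewise came to 0.66, 0.57 and 0.66 without ALL-SIL and SUP-T11, and the most opposite, AKAP12, went from -0.91 to -0.49.

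ITGA6, a laminin receptor subunit, ranged over 6.74 (SD 1.94). It was 5155 in LOUCY, 4224 in MOLT-16, 4017 in SUP-T13, 2837 in HSB-2, 2623 in SUP-T11, 2115 in PEER and 1722 in SKW-3. It was 1634 in CCRF-CEM, 1575 in DU528, 1395 in P12-ICHIKAWA, 681 in TALL-1, 513 in JURKAT, 432 in PF-382 and 384 in MOLT-4. It was 72.5 in ALL-SIL and 32.5 in KOPT-K1, 2.18 below the 14 other lines, and the second probe set (r = 0.980) was also lowest in KOPT-K1. ITGB1 was raised in both, at 5256 in ALL-SIL and 2607 in KOPT-K1. The limma slope of ITGB1 on ITGA6 was 0.04 (SE 0.10, 95% interval -0.17 to 0.25, adjusted p = 0.922). That limma fit called 0 genes (0%), and 1181 (8.88%) had an unadjusted p below 0.05. KLK6, RDX and VAMP8 were most like ITGA6 (r of 0.84, 0.83 and 0.81), and TLR5 was the most opposite at -0.85. KLK6 was not raised in any line, with intensities from 39.95 to 78.99. Without ALL-SIL and KOPT-K1, r was 0.73 for KLK6, 0.37 for RDX, 0.79 for VAMP8 and -0.64 for TLR5. ALL-SIL and KOPT-K1 were also the lines with RDX below 20.

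CD34 was not raised in any line. Its highest intensity was 74.2 in LOUCY, its median 55.7 and its lowest 23.9 in KOPT-K1, and all 15 steps between neighbouring lines were within 0.33. The SD of 0.34 lay near the median SD of all genes, 0.35. An array signal this low gives no order among lines, and RNA below the reach of this single probe set would not be seen. Its most like genes, GAST, RFX2 and CTH (r of 0.82, 0.75 and 0.75), and the most opposite, CEACAM5 (-0.82), are given by the naming rule only.

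CD93 was raised in 7 lines and below the table median in 9 (SD 2.17, range 6.89). It was 2976 in LOUCY, 693 in DU528, 658 in CCRF-CEM, 334 in MOLT-16, 262 in PEER, 221 in HSB-2 and 219 in SUP-T13. In the other 9 lines it was between 9.2 in TALL-1 and 26.7 in PF-382, 2.46 below SUP-T13. The second probe set followed with r = 0.989 and exceeded the mark of 169 in 3 lines. The endothelial markers CDH5 and VWF and the myeloid markers CD14 and MPO did not exceed that mark in any line, CLDN5 was at 1019.8 in LOUCY, and LYZ was at 385 in DU528. The summed level of the 7 endothelial markers ran from 158 in SUP-T11 to 4525 in DU528 (PECAM1 was at 4303 there and at 46.5 in LOUCY), and that of the 8 myeloid markers from 139 in MOLT-4 to 544 in DU528. Their part in the CD93 level was not tested. LYL1, a transcription factor of early progenitors, HHEX, a homeobox factor, and APOBEC3B were most like CD93 (r of 0.93, 0.92 and 0.92), and ZNF346 was the most opposite at -0.95. Without DU528 and LOUCY, r was 0.88, 0.90, 0.90 and -0.94. Within the 9 lines without CD93 signal, where CD93 values lay below the table median, r was 0.45, 0.29, 0.40 and -0.76.

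**Figure D3:**
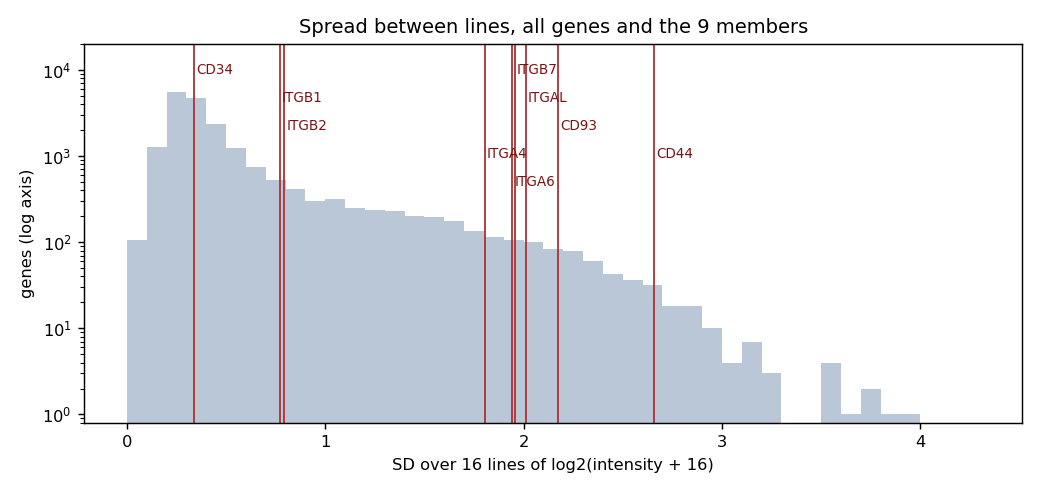
Histogram of the SD of log2(intensity + 16) over the 16 lines for all 19738 genes (number of genes on the vertical axis), with the 9 receptor genes marked. CD44 lies farthest to the right at 2.66, ITGB2 and ITGB1 lie at 0.79 and 0.77, and CD34 lies at 0.34, close to the median of 0.35.

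Of 19 other integrin subunits measured, 12 never exceeded 4 times the table median (45% of all genes did not) and 4 had an SD above 1 (12.5% of all genes), with a median SD of 0.45. Only ITGAE, the alpha partner of ITGB7 that binds E-cadherin, was raised in all lines, from 1881 in SUP-T11 to 7951 in PEER. ITGA1, a collagen receptor subunit, was at 1292 in KOPT-K1, 2782 in TALL-1 and at or below 203 in the other 14. ITGAV, of the RGD-binding receptors, was at 746 in LOUCY and 610 in MOLT-16 and at 9.7 and 13.1 in ALL-SIL and TALL-1. ITGAD exceeded the mark in HSB-2 (266) and LOUCY (248), and ITGA2 was highest in DU528, at 288.

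Of 22 measured activators and adaptors of integrins, 9 were raised in all lines (32.2% of all genes were) and 7 had an SD above 1 (12.5% of all genes), with a median SD of 0.66. RAP1A and RAP1B, the small GTPases that start inside-out activation, were at least 2220 and 4454 in every line. SKAP1, an adaptor that carries signals from the T-cell receptor to integrins, was at 5166 in DU528 and 2785 in SUP-T13, but at 2.6 in ALL-SIL and 7.8 in LOUCY. FERMT2 (kindlin 2 protein) was at 3716 in DU528 and 5.7 in SKW-3, and VCL, vinculin, ran from 51.4 in PEER to 5649 in LOUCY. PARVG, an adaptor of the ILK complex, was at 15.9 in SUP-T11 and at 138 or more in the 15 other lines. SUP-T11 was also the lowest line for ITGA4 and ITGB2, and likewise for TRA2B, GNAQ, COPS3 and CD99. The share of all genes lowest in SUP-T11 is not given here.

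Of 16 measured ligands and adhesion partners of these receptors, 5 never exceeded 4 times the table median (45% of all genes did not). These were VCAM1, MADCAM1, FN1, CDH1 and ICAM1. Another 5 were raised in all lines (32.2% of all genes were). Of the 16, 6 had an SD above 1 (12.5% of all genes), with a median SD of 0.65. ICAM2 was at least 1027 everywhere, and ICAM3 ran from 103 in DU528 to 5776 in LOUCY. PECAM1 was at 4303 in DU528 and below 100 in SUP-T11, SUP-T13, LOUCY and MOLT-16, while JAM3 was at 3315 in JURKAT, 17.7 in DU528 and 15.8 in TALL-1. CD9, a tetraspanin that associates with integrins, was at 1457 in SUP-T11, 1129 in SUP-T13 and 854 in LOUCY, and at 12.3 in DU528.

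Among 11 measured selectin ligand genes, 4 were raised in all lines (32.2% of all genes were) and 3 had an SD above 1 (12.5% of all genes), with a median SD of 0.41. SELPLG, the scaffold for P-selectin ligand, ran from 108 in TALL-1 to 2596 in SUP-T13. GCNT1, which builds the branched O-glycans of such ligands, was at 2635 in LOUCY and at or below 429.6 in the other 15 lines. CHST2, a sulfotransferase, ran from 395 in LOUCY to 4910.2 in ALL-SIL, and FUT4, a fucosyltransferase, from 170 in DU528 to 1097 in MOLT-16. Of 16 measured relatives of CD34 and CD93 and progenitor surface genes, 7 had an SD above 1 (12.5% of all genes did) and 6 were never raised (45% of all genes), with a median SD of 0.73. KIT, the stem cell factor receptor, was at 3613 in HSB-2, at 2608 in PEER, at 2219 in SUP-T13 and at 2403 in DU528, and at or below 304 elsewhere. SPINK2 was at 5847 in DU528 and 4769 in LOUCY, and PODXL, a sialomucin related to CD34, was highest in HSB-2 at 1166. CD38, an ectoenzyme of activated and immature lymphocytes, ran from 10.6 in MOLT-16 to 1534 in SKW-3.

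The levels of some receptors went with an ACTB control ratio, used as a measure of RNA quality. The ACTB control intensity near the 3' end over that near the 5' end, a ratio that is higher where RNA is more degraded or copied less far, ran from 1.44 in DU528 to 2.03 in MOLT-4. Over the 16 lines it had r of -0.73 with ITGB7 (rho -0.73), and -0.69 without JURKAT and MOLT-4, and 0.948% of the 13295 genes had an r as low or lower. Over the 13 lines with CD44 signal it had r of -0.71 with CD44 (rho -0.75), and -0.68 without MOLT-4 and PF-382. The r was -0.51 for ITGAL, -0.50 for ITGA6 and -0.49 for ITGB1, and between -0.01 and 0.06 for ITGB2, ITGA4 and CD34. An r as low as that of ITGB1 or lower was found for 9.09% of the 13295 genes. For CD93 the r was 0.51 within its 9 low lines and -0.24 within its 7 raised lines. The same kind of ratio for GAPDH stayed between 0.904 and 1.05 over the 16 arrays, and its r with the receptors was not computed. The part of RNA quality in the levels of these receptors was not tested.

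**Figure D4:**
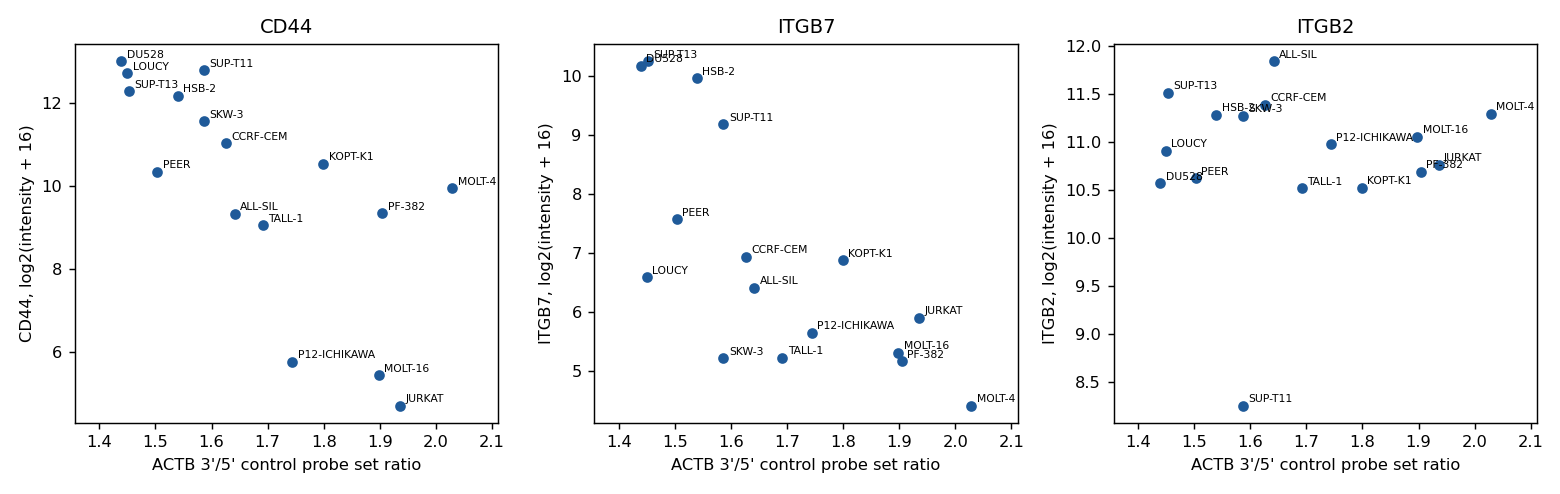
Log2(intensity + 16) of CD44, ITGB7 and ITGB2 (vertical axes) against the ACTB 3' over 5' control ratio (horizontal axis), 1 point per line and no error bars. ITGB7 is high in DU528, at a ratio of 1.44, and lowest in MOLT-4, at 2.03 (r = -0.73), while ITGB2 has r = 0.05.

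Set side by side, the lines carried different combinations. DU528, HSB-2, PEER and SUP-T13 had 8 of the 9 genes above 4 times the table median, all but CD34, and CCRF-CEM had 7. ALL-SIL, JURKAT, KOPT-K1, MOLT-16 and P12-ICHIKAWA had 5. PEER reached its count with ITGB7 at 174, just above that mark and read by a single probe set. The second CD93 probe set did not exceed the mark in HSB-2 (74.9), SUP-T13 (87.8), PEER (114.7) or MOLT-16 (139.3). It did in DU528 (255), CCRF-CEM (249) and LOUCY (1233). The counts for HSB-2, SUP-T13, PEER and MOLT-16 therefore depend on the probe set taken for CD93. MOLT-16 lacked a raised signal for CD44, ITGAL and ITGB7 while it kept ITGA4 at 4082, ITGA6 at 4224 and CD93 at 334. SUP-T11 had CD44 at 6974 and ITGA6 at 2623 but ITGA4 at 23.0, and KOPT-K1 had CD44 at 1462 and ITGA4 at 1790.4 but ITGA6 at 32.5. JURKAT and P12-ICHIKAWA, without CD44 signal, had ITGA4 at 4211 and 2942.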

How the data were processed

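Total RNA of 16 T-ALL cell lines was hybridised to 1 array each. The authors deposited a table of linear intensity values per probe set. Its software, background correction and scaling were not given in the sources used here, and a step that scales arrays to each other would bear on every level above. No further normalization was applied. Of the 54675 probe sets, 41048 named 1 gene of the reference, and each of 19738 genes was read by its probe set with the highest mean. Values were analysed as log2(intensity + 16) in Python 3.11.15 (pandas 2.3.3, numpy 2.4.6, scipy 1.17.1). Genes whose 3rd highest value was above the table median, 13295 in all, entered fits in limma 3.58.1 (R 4.3.3, trend and robust) on the level of ITGAL, ITGA4 or ITGA6, with Benjamini-Hochberg adjustment over all 13294 genes tested. On simulated data with 200 changed genes, slopes of 0.5 were recovered in 86%, 84% and 81% of genes for these 3 drivers. The changed genes were drawn at random, and the noise was independent and normal with the SD of each gene. These shares therefore do not give the power for the partner genes, such as ITGB7 on ITGA4 with an SE of 0.26. P-values measure the spread between lines only. The number of arrays limits precision. The genes and lists were chosen with earlier results of these data known. The rule for named genes took the 9 genes, the 3 most like and 1 most opposite gene of each, the 4 members of each list with the widest range, the T-cell markers and the nearest measured neighbours in the genome. Other list members were chosen after their values were seen. Alternatives were other pseudocounts, other probe set choices, other scalings and leaving out lines.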

Additional observations from a re-analysis of the deposited data

How the results depend on the processing

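With other pseudocounts, probe set choices and scalings, the counts of receptors with an SD above 1 and of receptors switched between lines stayed at 6. The count of receptors above 4 times the table median in all lines was 2, but 1 with the probe set of highest SD and 0 with the mean of all probe sets. Leaving out 1 line at a time, these counts ran from 5 (without SUP-T11) to 6, from 5 (without KOPT-K1, MOLT-16 or SUP-T11) to 6, and from 2 to 3 (without SUP-T11). No slope between integrin partners was called under any alternative. Leaving out 1 line, the slope of ITGB2 on ITGAL ran from -0.00245 (without ALL-SIL, reversed in sign) to 0.0932, that of ITGB1 on ITGA4 from 0.14 to 0.19, that of ITGB7 on ITGA4 from -0.45 to -0.23, and that of ITGB1 on ITGA6 from 0.0011 to 0.11. The slope of ITGB1 on ITGA6 was reversed to -0.0756 (limma adjusted p = 0.845) with the ACTB ratio as a covariate and to -0.0217 (adjusted p = 0.968) without DU528 and LOUCY. The slope of ITGB2 on ITGA4, chosen after seeing the data, ran from 0.02 (without SUP-T11) to 0.38 when 1 line was left out, and from 0.31 to 0.40 under the other alternatives. With the mean of all probe sets its adjusted p was 0.0567. The cause of these changes was not tested. SUP-T11 was the only line with ITGA4 at or below the table median. No paired analysis was possible because all lines form 1 group and the labels give no replicate numbers. Low signals near the table median limit what CD34, and the lines without CD44, CD93 or ITGB7 signal, can show.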

Other observations

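Of the nearest measured genes on the chromosome, SEPHS2, beside ITGAL, had the highest r with its receptor over the 16 lines, 0.63 (rho 0.56), with intensities from 2404 in TALL-1 to 9419 in DU528, and ZNF747, on the other side of ITGAL, had r = -0.02. ITGB2-AS1, the RNA beside ITGB2, was lowest in SUP-T11 at 25.4, the line that was also lowest for ITGB2, and highest in MOLT-4 at 613 (r = 0.56 with ITGB2 over 16 lines, rho 0.37). The second ITGB2-AS1 probe set (r = 0.967 to the main one) was lowest in MOLT-16, at 11.9, with 15.25 in SUP-T11. In MOLT-16 ITGB2 was at 2118. The array labels do not say whether the ITGB2-AS1 probe sets could read ITGB2 transcripts. UBE2E3, next to ITGA4, was at 3.7 in TALL-1 and at a median of 4022 over the lines, and ITPRID2, on the other side of ITGA4, was also lowest in TALL-1, at 7.7. In TALL-1 itself ITGA4 was at 2297. The genes beside CD44 (PDHX and SLC1A2), CD34 (LOC148696 and PLXNA2) and CD93 (THBD and LINC00656) had r between -0.43 and 0.26 with their neighbour over the 16 lines. DLX2, beside ITGA6, exceeded 4 times the table median in SUP-T11 only, at 1062. PDK1, on the other side of ITGA6, was lowest in ALL-SIL at 2.9 and had r = 0.27 with ITGA6, and DLX2 had r = 0.38. PTTG1IP, the other neighbour of ITGB2, had r = 0.27. CCDC7 and ITGB1-DT, beside ITGB1, never exceeded 4 times the table median (r of 0.35 and 0.01). ZNF740 and RARG, beside ITGB7, had r of -0.34 and 0.29, and UBE2E3 and ITPRID2 had r of 0.07 and 0.17 with ITGA4.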
